A study of Mus musculus with 4 samples.

Results

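The genes described here encode the thin filament of striated muscle: the cardiac troponins Tnnt2, Tnni3 and Tnnc1, the slow skeletal and fetal troponins Tnni1 and Tnnt1, the tropomyosin Tpm1, the sarcomeric actins Actc1 and Acta1, and the end-binding proteins Lmod2 and Tmod1. They were taken by gene name from the deposited table, which held 10 of 10 listed names among 28723 genes. RNA from the hearts of C57BL/6J mice was sequenced in 4 libraries. The control group was 8 weeks old (young, replicates 1 and 2) and the model group was 12 months old (aged, replicates 1 and 2). All libraries are labelled wild type and untreated, and the mice were kept under specific-pathogen-free conditions. The titles of the aged libraries nevertheless begin with FLOX and those of the young libraries with C, and the labels do not say what these prefixes mean. The labels state neither the sex of the mice nor whether the libraries of an age are different animals. The p-values below therefore rest on the spread among these 4 libraries, which may be technical. Age is recorded in a label field named batch, and age and any batch cannot be told apart.

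The thin filament is a helical polymer of actin along which tropomyosin dimers lie end to end, with a troponin complex on each tropomyosin. Troponin C (Tnnc1) binds calcium, troponin I (Tnni3) inhibits the actin-myosin interaction, and troponin T (Tnnt2) anchors the complex to tropomyosin, so that a rise in calcium moves tropomyosin and lets myosin bind actin. The fetal rodent heart expresses Tnni1 and more Acta1, and after birth Tnni3 replaces Tnni1 and Actc1 becomes the dominant sarcomeric actin. Tmod1 (tropomodulin) caps the pointed end of the filament, and Lmod2 (leiomodin) binds the same end and favours longer filaments.

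Promoter sequence of the members was taken from RefSeq on build GRCm38.p6, as the 250 bases before the annotated start site. All 10 members matched, with 12 windows, since Tnni1 and Tnnt2 have 2 start sites each. These RefSeq starts can differ from the gene bounds given below, and 7 of the 12 windows, those of Actc1 and Tnni3 included, lie wholly inside the annotated gene. Windows are shown for both actins, which differ in how they varied between aged libraries, and for Tnnt2 and Tnni3, which fell. Each is written 5′ to 3′ on the strand of the gene, with capitals marking a CArG box (the element bound by serum response factor, Srf), TATAAA, or CATTCC (the MCAT element bound by Tead factors). The windows are chr2:114052876-114053125 (minus strand) for Actc1, chr8:123894776-123895025 (minus strand) for Acta1, chr1:135836084-135836333 (plus strand, the upstream start site) for Tnnt2, and chr7:4522529-4522778 (minus strand) for Tnni3.
Actc1: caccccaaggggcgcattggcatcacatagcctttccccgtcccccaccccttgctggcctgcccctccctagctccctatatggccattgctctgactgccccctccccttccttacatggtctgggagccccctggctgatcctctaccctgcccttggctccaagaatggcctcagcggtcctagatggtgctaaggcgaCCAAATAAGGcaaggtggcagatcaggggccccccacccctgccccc
Acta1: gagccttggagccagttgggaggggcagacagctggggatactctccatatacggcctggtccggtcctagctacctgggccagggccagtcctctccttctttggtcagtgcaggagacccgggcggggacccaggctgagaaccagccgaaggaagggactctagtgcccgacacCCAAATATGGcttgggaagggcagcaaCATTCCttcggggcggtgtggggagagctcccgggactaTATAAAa
Tnnt2: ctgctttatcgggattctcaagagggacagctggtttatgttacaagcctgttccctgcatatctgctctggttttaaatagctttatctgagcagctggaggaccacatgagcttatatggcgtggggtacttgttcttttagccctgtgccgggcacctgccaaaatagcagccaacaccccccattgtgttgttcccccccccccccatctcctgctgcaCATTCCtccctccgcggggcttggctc
Tnni3: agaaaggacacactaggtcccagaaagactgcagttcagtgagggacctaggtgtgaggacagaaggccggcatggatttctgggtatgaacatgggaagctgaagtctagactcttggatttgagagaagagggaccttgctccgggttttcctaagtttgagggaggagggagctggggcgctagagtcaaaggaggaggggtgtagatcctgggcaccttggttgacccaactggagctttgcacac

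Both strands were searched. A CArG box was found in 1.47% of all 32851 RefSeq windows of the same length. Among the members it was found only in Actc1 (CCAAATAAGG, 47 to 38 bases before the start) and Acta1 (CCAAATATGG, 73 to 64 bases before the start). TATAAA was present in 12.4% of all windows and in those of Acta1 and Tnnt1. CATTCC was present in 12.6% of all windows and in those of 5 members, Acta1, Tmod1, Tnnc1, Tnnt2 and Tpm1. CANNTG, the E-box bound by basic helix-loop-helix factors, was present in 66.2% of windows and in 8 members. The motif AGATAA of the GATA factors was present in 9.99% of windows and in 1 member, Tnnt2. None of the first 3 motifs was present in the Tnni3 window. These are matches of letters, not measured binding.

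At 12 months the RNA of the 3 cardiac troponins and of tropomyosin was lower than at 8 weeks, while cardiac actin and both pointed-end proteins were higher. A gene was called where the Benjamini-Hochberg adjusted p stayed under 0.05 in edgeR's quasi-likelihood test over 12027 genes with a mean FPKM of at least 1. FPKM is a fragment count scaled by exon length and library size. Of the 10 members, 9 passed the minimum. Of these, 3 were called higher (Actc1, Lmod2 and Tmod1) and 5 lower (Tnnt2, Tnni3, Tnnc1, Tpm1 and Tnnt1). The calls of Actc1 and Tnnt1 were lost under several alternatives, given with each gene below. Among all tested genes 37.6% were called in either direction, 20.1% higher and 17.5% lower. Without young replicate 1, 1 member was called higher and 3 lower, and the shares over all tested genes were 9.87% higher and 7.4% lower, 17.3% in all. The median log2 fold change was -0.50 over the 9 tested members and 0.00622 over all tested genes. Summed, the members made up 2.81% and 2.79% of the counts at 8 weeks and 2.43% and 2.44% at 12 months. Since these are bulk samples, fewer cells of a type and less RNA per cell cannot be told apart.

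**Figure D1:**
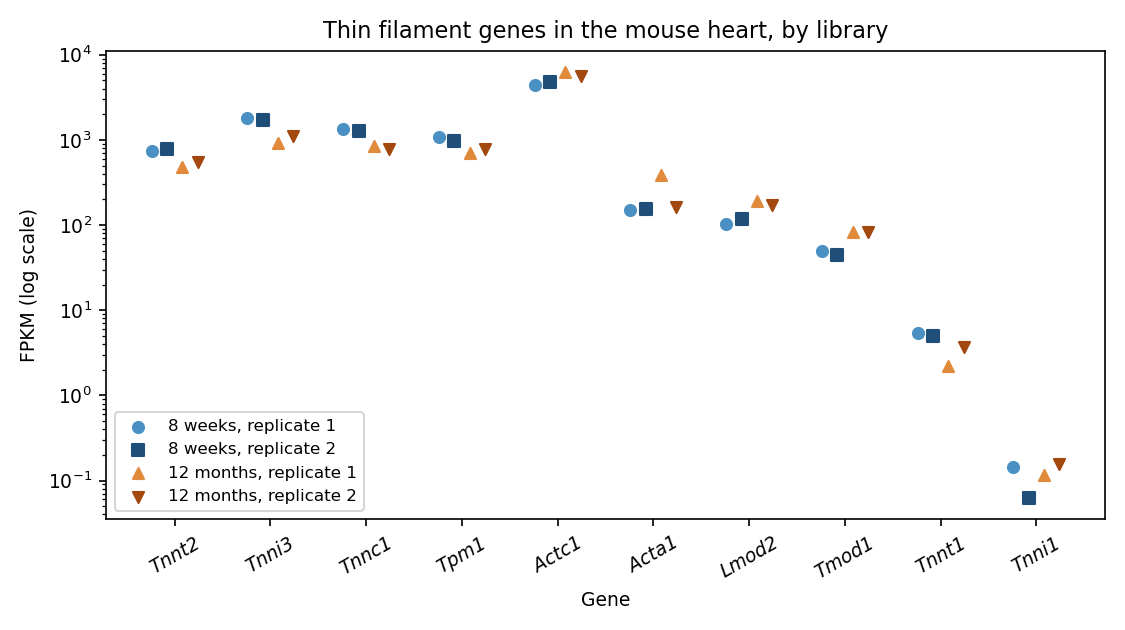
FPKM (log scale) of the 10 thin filament genes, with 1 symbol per library and gene. The ages overlap for Tnni1, and Acta1 of aged replicate 2 (162.1) lies close to the young values. How many of all tested genes show no overlap between ages was not computed.

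Tnni3, the inhibitory subunit of cardiac troponin (ENSMUSG00000035458, GRCm38 chr7:4518305-4522794, minus strand), was at 1803 and 1714 FPKM at 8 weeks, against 925.2 and 1115 FPKM at 12 months. Both aged values lay far below both young values. The mean moved from 1759 ± 63.0 to 1020 ± 134.3 FPKM (SD, n = 2 each), a log2 fold change of -0.85 ± 0.0938 (SE; edgeR adjusted p = 0.00212).

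Tnnt2, which ties the complex to tropomyosin (ENSMUSG00000026414, chr1:135836354-135852260, plus strand), was at 743.2 and 772.6 FPKM at 8 weeks, against 475.2 and 554.8 FPKM at 12 months. The ages did not overlap, and the aged libraries lay further apart than the young ones. The mean went from 757.9 ± 20.7 to 515.0 ± 56.3 FPKM (SD, n = 2 each), a log2 fold change of -0.62 ± 0.0793 (edgeR adjusted p = 0.00313).

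Tnnc1, the calcium-binding subunit (ENSMUSG00000091898, chr14:31208312-31211729, plus strand), was at 1350 and 1283 FPKM at 8 weeks, against 851.5 and 789.4 FPKM at 12 months. The spread within each age was small beside the gap between them. The mean moved from 1317 ± 47.3 to 820.5 ± 43.9 FPKM (SD, n = 2 each), a log2 fold change of -0.74 ± 0.0817 (edgeR adjusted p = 0.00208). The call was kept for Tnni3, Tnnt2 and Tnnc1 when any library was left out. With the trend of fold change on principal transcript length removed, Tnnc1 was at -0.59 and no longer called (edgeR adjusted p = 0.0852).

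Tpm1, the main tropomyosin of the mouse heart (ENSMUSG00000032366, chr9:67022590-67049267, minus strand), was at 1067 and 959.5 FPKM at 8 weeks, against 709.8 and 783.4 FPKM at 12 months. All aged values were below all young ones. The mean went from 1013 ± 76.0 to 746.6 ± 52.1 FPKM (SD, n = 2 each), a log2 fold change of -0.50 ± 0.0782 (edgeR adjusted p = 0.00543). Without young replicate 1 the log2 fold change was -0.42 and the call was lost (edgeR adjusted p = 0.068).

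The RNA of the cardiac troponins did not keep exactly the same proportions, though the FPKM ratios given here were not tested. Their level depends on the length used. In counts scaled to the library total per kilobase of principal transcript, Tnnt2 (mean 5366 at 8 weeks) stood above Tnni3 (4360). Tnnt2 stood at 41.2% and 45.1% of Tnni3 FPKM at 8 weeks, against 51.4% and 49.8% in the aged libraries, with no overlap between ages. Tnnc1 stood at 74.9% of Tnni3 in both young libraries and at 92.0% and 70.8% in aged replicates 1 and 2, on either side of the young value.

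**Figure D2:**
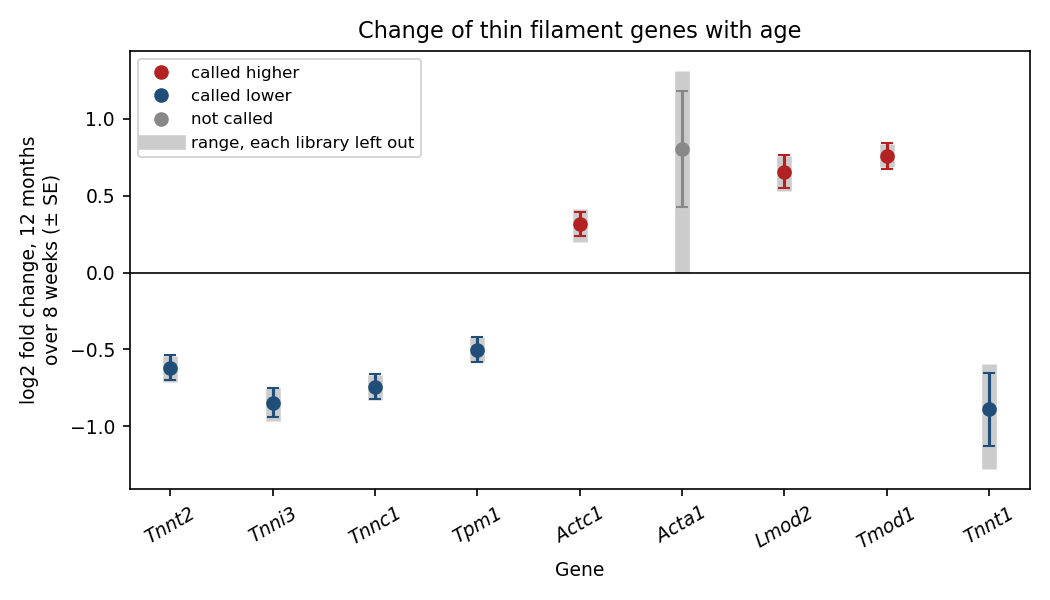
Log2 fold change, 12 months over 8 weeks, of the 9 tested thin filament genes (points, ± SE), with grey bars from the lowest to the highest value when each library was left out in turn. The bars of Acta1 run from -0.0055 to 1.31, while those of the other genes stay on one side of 0.

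Actc1, the cardiac actin and the most abundant member (ENSMUSG00000068614, chr2:114047282-114053548, minus strand), was at 4444 and 4732 FPKM at 8 weeks, against 6263 and 5625 FPKM at 12 months. The ages did not overlap. The mean moved from 4588 ± 203.6 to 5944 ± 451.5 FPKM (SD, n = 2 each), a log2 fold change of 0.32 ± 0.0791 (edgeR adjusted p = 0.0247). This was the smallest change among the called members. The call did not survive leaving out young replicate 1 (adjusted p = 0.199), young replicate 2 (0.102) or aged replicate 1 (0.0758) in the same edgeR test, with log2 fold changes of 0.28, 0.36 and 0.20. It was also lost with no FPKM minimum (edgeR adjusted p = 0.0826) and with the trend on GC content removed (adjusted p = 0.0603, edgeR).

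Acta1, the skeletal actin (ENSMUSG00000031972, chr8:123891769-123894751, minus strand), was at 151.1 and 154.0 FPKM at 8 weeks, at 389.0 FPKM in aged replicate 1 and at 162.1 FPKM in aged replicate 2. Only aged replicate 1 stood apart. The log2 fold change was 0.80 ± 0.377 and was not called (edgeR adjusted p = 0.143). It was -0.0055 without aged replicate 1 (adjusted p = 0.963) and 1.31 without aged replicate 2 (edgeR adjusted p = 7.43e-05), so the difference rests on a single library.

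Lmod2, the leiomodin of the heart (ENSMUSG00000029683, chr6:24597762-24605414, plus strand), was at 103.2 and 117.3 FPKM at 8 weeks, against 191.5 and 169.9 FPKM at 12 months. The ages were well apart. The mean went from 110.3 ± 9.97 to 180.7 ± 15.3 FPKM (SD, n = 2 each), a log2 fold change of 0.66 ± 0.107 (edgeR adjusted p = 0.00607). The call was lost without young replicate 1 (log2 fold change 0.57, edgeR adjusted p = 0.0601).

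Tmod1, the pointed-end cap (ENSMUSG00000028328, chr4:46038935-46116032, plus strand), was at 49.2 and 44.6 FPKM at 8 weeks, against 82.9 and 82.1 FPKM at 12 months. The aged libraries were nearly equal, and both were far above the young ones. The mean moved from 46.9 ± 3.25 to 82.5 ± 0.531 FPKM (SD, n = 2 each), a log2 fold change of 0.76 ± 0.0848 (edgeR adjusted p = 0.00219). The call was kept with any library left out. Lmod2 and Tmod1 rose side by side: Lmod2 stood at 209.9% and 263.1% of Tmod1 FPKM at 8 weeks, against 231.1% and 206.9% in the aged ones, and these ranges overlapped.

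The skeletal and fetal troponins were low at both ages. Tnni1, the slow skeletal troponin I that the fetal heart uses (ENSMUSG00000026418, chr1:135779434-135810989, plus strand), was at 0.143 and 0.063 FPKM at 8 weeks, against 0.116 and 0.156 FPKM at 12 months. These values correspond to 32, 16, 25 and 32 counts. The ages overlapped, and the gene lay under the FPKM minimum and was not tested. With no minimum its log2 fold change was 0.31 ± 0.616 (edgeR adjusted p = 0.806).

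Tnnt1, the slow skeletal troponin T (ENSMUSG00000064179, chr7:4504570-4516382, minus strand), was at 5.44 and 4.96 FPKM at 8 weeks, against 2.19 and 3.66 FPKM at 12 months. It fell with the cardiac troponins, and its aged libraries differed more from each other than its young ones. The log2 fold change was -0.89 ± 0.237 (edgeR adjusted p = 0.0302), the largest in size among the called members. It was not called after leaving out young replicate 1 (adjusted p = 0.138) or young replicate 2 (edgeR adjusted p = 0.0947), with no FPKM minimum (0.0662), with FPKM rescaled to equal sums (0.0703, limma), and with the length trend removed (0.112).

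Tnnt1 lies 1922 bases downstream of Tnni3 on the same strand of chromosome 7, with no gene between them. Its counts equalled 0.324% and 0.310% of the Tnni3 counts at 8 weeks and 0.256% and 0.353% at 12 months, and these ranges overlapped. Dnaaf3, a dynein assembly factor whose gene ends 138 bases upstream of Tnni3 on the same strand, also fell, by 1.00 ± 0.141 on the log2 scale (edgeR adjusted p = 0.00399). Its counts equalled 0.485% and 0.467% of those of Tnni3 at 8 weeks and 0.424% and 0.432% at 12 months. Both aged values were thus somewhat below both young ones. Ppp1r12c, a phosphatase regulatory subunit gene 2889 bases beyond Tnnt1 on the same strand, was not called (log2 fold change -0.23 ± 0.0754, edgeR adjusted p = 0.0579). Its counts equalled 2.51% and 2.92% of those of Tnni3 at 8 weeks and 4.51% and 3.86% at 12 months, so that it did not keep its proportion to Tnni3. Whether fragments from Tnni3 add to any of these neighbours was not tested. Lad1, which lies 3011 bases before Tnnt2 on chromosome 1, went the other way from Tnnt2, with a log2 fold change of 1.60 ± 0.436 (edgeR adjusted p = 0.0322), not called without either young replicate or without aged replicate 1.

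The share of the fetal or skeletal isoform was computed within each library, where scaling between libraries has no part. Tnni1 made up 0.00791% and 0.00368% of Tnni1 plus Tnni3 FPKM at 8 weeks and 0.0125% and 0.01403% at 12 months. The aged shares were higher in both libraries while Tnni1 itself overlapped between ages and Tnni3 fell (two-sided exact permutation p = 0.333, the smallest that 2 against 2 libraries allow). Tnnt1 made up 0.727% and 0.638% of Tnnt1 plus Tnnt2 FPKM at 8 weeks and 0.460% and 0.655% at 12 months. These shares overlapped (exact permutation p = 0.667). Their level depends on the exon length used in FPKM. By counts the shares were lower, at 0.209% and 0.183% at 8 weeks and 0.132% and 0.189% at 12 months. Acta1 made up 3.29% and 3.15% of sarcomeric actin FPKM in the young libraries, 5.85% in aged replicate 1 and 2.80% in aged replicate 2 (exact permutation p = 1). The aged actin shares thus lay on both sides of the young ones, and the difference of 1.10 percentage points became -0.42 without aged replicate 1.

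Shares of this kind need reads that can be assigned to an isoform. The principal transcripts of Acta1 and Actc1 have coding regions of 1131 nucleotides (nt) that are 86.3% identical, with 155 differing bases. Their longest common stretch is 29 nt, coding bases 964 to 992 of Acta1, printed from the GENCODE reference because it is the longest exact match between these transcripts.
Acta1 and Actc1 common stretch: ctggctcccagcaccatgaagatcaagat

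No stretch of 50 or 150 nt of Acta1, the latter being the labelled read length, occurred in Actc1. The longest common stretch was 21 nt between Tnni1 and Tnni3 and 15 nt between Tnnt1 and Tnnt2. How the authors' counting treated reads that map to several places is not given in the sources used here.

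Ratios to Actc1 within a library show the unequal change of the members without any scaling between libraries. Each ratio also includes the rise of Actc1, whose call was lost when any library but aged replicate 2 was left out. The level of a ratio depends on the exon length used in FPKM. Tnni3 stood at 40.6% and 36.2% of Actc1 FPKM at 8 weeks, against 14.8% and 19.8% in the aged libraries. Tnnc1 moved from 30.4% and 27.1% to 13.6% and 14.04%. Tnnt2 moved from 16.7% and 16.3% to 7.59% and 9.86%. For all 3 troponins the young range lay wholly above the aged range. Tpm1 stood at 24.01% and 20.3% at 8 weeks, against 11.3% and 13.9% at 12 months, again with no overlap. The pointed-end proteins stood higher against Actc1 in both aged libraries: Lmod2 moved from 2.32% and 2.48% to 3.06% and 3.02%, and Tmod1 from 1.11% and 0.942% to 1.32% and 1.46%.

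**Figure D3:**
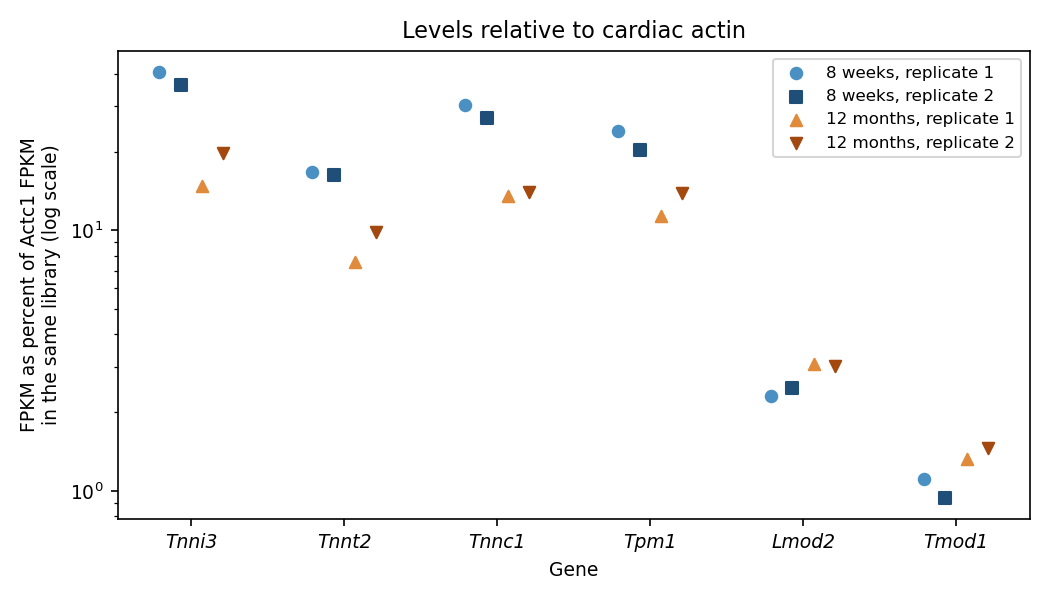
FPKM of 6 thin filament genes as a percent of Actc1 FPKM in the same library (log scale), with 1 symbol per library. The troponins and Tpm1 stand lower in both aged libraries, and Lmod2 and Tmod1 stand higher. The ratios include the rise of Actc1, and their level depends on the exon length used in FPKM.

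The order of the members by level depends on the length used. The deposited FPKM were proportional to counts over the merged length of all annotated exons of a gene. With FPKM scaled to the summed counts of a library, the length they imply was at the median 1.10 times the merged length in both young libraries and 1.08 times in both aged ones. Of the genes with at least 50 counts in each library, 97% to 97.7% lay within 2% of that median ratio. For Tnnt2 that length is 7752 nt against 1200 nt for its principal transcript, and for Tpm1 it is 6485 against 1898 nt. For Actc1 it is 1618 against 1473 nt. By FPKM the order at 8 weeks was Actc1, Tnni3, Tnnc1, Tpm1 and Tnnt2. By counts scaled to the library total (CPM) per kilobase of the principal transcript it was Actc1 (mean 5523), Tnnt2 (5366), Tnni3 (4360), Tpm1 (3794) and Tnnc1 (2084). On that scale Actc1 stood slightly above Tnnt2 within both young libraries (5345 against 5258 and 5700 against 5473), though the ranges overlapped. At 12 months the means were 7053 for Actc1, 3594 for Tnnt2, 2756 for Tpm1, 2493 for Tnni3 and 1280 for Tnnc1. There Actc1 stood clear of Tnnt2 in both libraries. Tpm1 stood above Tnni3 within both aged libraries (2617 against 2258 and 2895 against 2728), though the ranges overlapped. The length cancels in the fold change of a gene between ages.

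Transcript length moved with the change across all tested genes. The 761 tested genes with a principal transcript under 1000 nt had a median log2 fold change of -0.37, with 41.9% called lower and 4.6% called higher. Tnni3 (912 nt) and Tnnc1 (721 nt) belong to this class. The 1073 genes of 1000 to under 1500 nt, with Tnnt2, Tnnt1, Acta1 and Actc1, had a median of -0.16, and the 1272 genes of 1500 to under 2000 nt, with Tpm1 (1898 nt) and Lmod2 (1976 nt), had a median of -0.02. The 3287 genes of 3000 to under 5000 nt, with Tmod1, had a median of 0.12. With that trend removed, Tnni3 was at -0.60 (edgeR adjusted p = 0.00677) and Tnnt2 at -0.40 (adjusted p = 0.0441, edgeR), so both changes were smaller but still called. Actc1 was at 0.41, Lmod2 at 0.61, Tmod1 at 0.73 and Tpm1 at -0.54, all still called. Actc1 was called higher in a length class with a median below 0.

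Marker genes of other cell types differed between the ages as well. The labels name the tissue as heart and do not describe the dissection, so how much atrial tissue each library held is unknown, and age and atrial content cannot be told apart. The summed FPKM of 8 atrial muscle markers was 293.7 and 294.5 at 8 weeks and 4484 and 1742 at 12 months. None was at 0 in any library. All 8 were called higher, where 20.1% of all tested genes were. Bmp10 passed the FPKM minimum only through aged replicate 2, being at 0.0229 and 0.0456 FPKM in the young libraries. Its log2 fold change was 6.69, and 2.19 without aged replicate 2. Nppa made up most of each sum, at 239.7 and 275.1 FPKM in the young and 3101 and 971.7 FPKM in the aged libraries. Between the young libraries the other markers except Bmp10 were higher in replicate 1, with Myl7 at 29.8 against 7.86 FPKM. Of the aged libraries, replicate 1 was higher for every marker but Bmp10 (0.169 against 7.80 FPKM). Aged replicate 1, which had the highest atrial sum, also had the highest Acta1. The sum of 16 skeletal muscle markers was 39.5 and 39.7 in the young and 78.0 and 48.7 in the aged libraries. Of these, 9 were tested, with 1 called higher and 2 lower, where 20.1% and 17.5% of all tested genes were. The gene called higher was Myot, a Z-disc protein, at 6.75 and 10.3 FPKM at 8 weeks and 45.0 and 24.4 FPKM at 12 months (edgeR adjusted p = 0.00684). Without it the other 15 markers summed to 32.8 and 29.4 FPKM in the young and 33.0 and 24.3 FPKM in the aged libraries. The embryonic heavy chain Myh3 was listed at 0 in every library but young replicate 2, where it had 14 counts. The 8 cardiac muscle markers summed to 14130 and 13750 in the young and 10870 and 11310 in the aged libraries. Of these, 2 were called higher (Ryr2 and Actn2) and 3 lower (Mb, Myl2 and Myl3). Mb, the largest in the young libraries, was at 4934 and 4874 FPKM there and at 3017 and 3263 FPKM at 12 months. Myh6, the main myosin heavy chain of the adult mouse heart, was at 3170 and 3065 FPKM at 8 weeks. It was at 3524 and 3364 FPKM at 12 months. The 8 endothelial markers summed to 325.2 and 323.3 in the young and 159.4 and 156.5 in the aged libraries, and the 8 fat cell markers to 24.9 and 17.96 against 153.1 and 151.2. The 8 fibroblast markers summed to 182.5 and 180.2 against 250.4 and 213.8. Of these, 1 was called higher and 0 lower, where 20.1% and 17.5% of all tested genes were. The 8 smooth muscle markers summed to 493.0 and 491.4 against 570.7 and 556.5. For the 5 red blood cell markers the sums were 2606 and 2358 against 3908 and 3917. Des made up most of the smooth muscle sum, at 302.6 and 307.3 against 370.3 and 332.9 FPKM, and was not called. Of 7 tested smooth muscle markers, 2 were called higher and 1 lower. Cidea, also not called, made up most of the young fat cell sums, at 14.7 and 15.1 FPKM. The part of these marker differences in the members' values was not tested.

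Other genes of the actin filament gave a background to the members. Of 15 paralogs expressed mainly in other muscles or cells, 14 were tested. Of these, 1 was called higher and 3 lower, with a median log2 fold change of -0.14. Over all tested genes the shares were 20.1% higher and 17.5% lower. Tpm2, the beta tropomyosin, was at 11.3 and 13.4 FPKM at 8 weeks, against 48.2 and 22.7 FPKM at 12 months, with its highest value in the same library as Acta1. Its log2 fold change was 1.47 ± 0.342 (edgeR adjusted p = 0.0195), and the call was lost without either young replicate. The tropomodulin Tmod3 fell by 0.46 on the log2 scale, the skeletal tropomodulin Tmod4 by 0.60 and the cytoplasmic actin Actb by 0.43, in contrast to the rise of Tmod1. The Actb call was lost without either young replicate, and the Tmod4 call without young replicate 2 or aged replicate 2. The fast skeletal troponins Tnni2, Tnnt3 and Tnnc2 were between 1.01 and 3.30 FPKM in every library and were not called.

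Of 20 genes that act on the filament as cappers, nebulin relatives, assembly or turnover factors, 19 were tested, with 12 called higher and 0 lower in edgeR and a median log2 fold change of 0.58. With all libraries, 20.1% of all tested genes were called higher and 17.5% lower. After removal of the trend on principal transcript length, 11 of the 19 were called higher, as were 1922 of all 12027 tested genes. Without young replicate 1, 7 of the 19 were called higher, where 9.87% of all tested genes were. At an unadjusted p under 0.05, 1 gene (Cap1) was lower, and DESeq2 and limma called 0 lower. On the log2 scale, Xirp1, an actin-binding protein of the intercalated disc, rose by 1.24 ± 0.106, the cyclase-associated protein Cap2, which acts on actin turnover, by 1.11 ± 0.0828, the kelch protein Klhl41 by 1.07 ± 0.0967 and the formin Fhod3, which assembles cardiac actin, by 1.06 ± 0.0941. Their edgeR adjusted p were 0.00128, 0.0012, 0.00136 and 0.00128. Fhod3 was at 17.8 and 20.1 FPKM in the young and at 39.1 and 43.4 FPKM at 12 months. The barbed-end capping subunits were less uniform: Capza2 was called higher by 0.58 on the log2 scale, while Capza1 (-0.06) and Capzb (0.01) were not called.

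Of 13 transcription factors and cofactors that act on sarcomere genes, all were tested, 7 were called higher and 0 lower in edgeR, and the median log2 fold change was 0.50. The shares over all tested genes were 20.1% higher and 17.5% lower with all libraries. After removal of the trend on principal transcript length, 6 of the 13 were called higher and 1 lower. Of all 12027 tested genes, 1922 were then called higher and 1801 lower. Without young replicate 2, 4 of the 13 were called higher, where 10.5% of all tested genes were. At an unadjusted p under 0.05, 1 gene (Mrtfb, a cofactor of Srf) was lower, and DESeq2 called 1 lower and limma 0. On the log2 scale, the cardiac T-box factor Tbx5 rose by 2.33 ± 0.247 (edgeR adjusted p = 0.0019), from 2.05 FPKM in both young libraries to 13.3 and 8.05 FPKM. Srf was at 17.1 and 17.7 FPKM in the young and at 39.4 and 32.2 FPKM at 12 months, a log2 fold change of 0.98 ± 0.116 (edgeR adjusted p = 0.00246). The muscle methyltransferase Smyd1 rose by 0.95 ± 0.0759 (edgeR adjusted p = 0.0012) and Tead1 by 0.91 ± 0.132 (adjusted p = 0.00427, edgeR). Nkx2-5 (0.06) and Mef2d (0.02) were not called.

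Among 9 thick filament genes, all were tested, with 3 called higher and 4 lower and a median log2 fold change of -0.04. Of all tested genes, 20.1% were called higher and 17.5% lower. As with the troponins, the ventricular myosin light chains fell on the log2 scale: Myl2 by 0.98 ± 0.0941 (edgeR adjusted p = 0.00156) and Myl3 by 0.79 ± 0.0739 (adjusted p = 0.00148, edgeR). Myh7b, a myosin heavy chain gene, fell by 1.5 ± 0.092, and the atrial light chain Myl7 rose by 5.18 ± 0.698 (edgeR adjusted p = 0.0012 and 0.00356). The heavy chain Myh6 (0.09) and the myosin-binding protein Mybpc3 (-0.04) were not called.

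**Figure D4:**
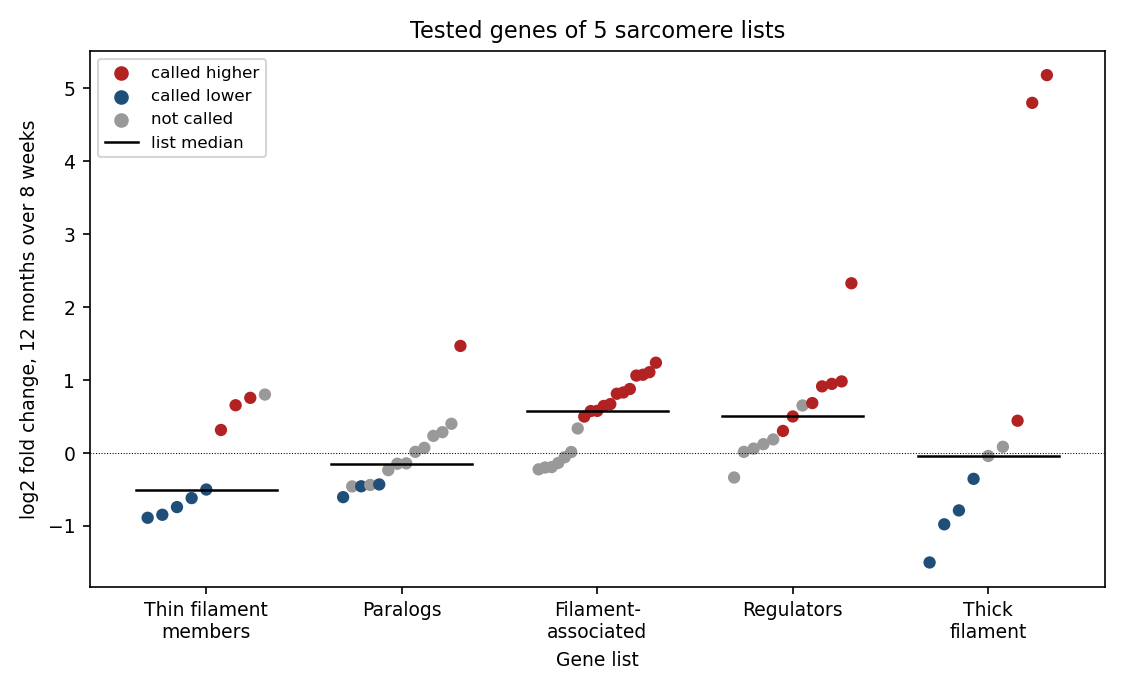
Log2 fold change, 12 months over 8 weeks, of the tested genes in 5 lists (points, sorted within each list; lines are list medians). The thin filament members spread on both sides of 0, whereas the called filament-associated genes and regulators all lie above it.

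The genes nearest in pattern to Tnnt1, the called member with the largest change, were sought by Euclidean distance between mean-centred log2 CPM over the 4 libraries. They were 4631405J19Rik (distance 0.082), Gm21860 (0.0911), Gm16184 (0.106), Irx5 (0.111) and Gm49130 (0.114). With 4 libraries such likeness is a description only.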

How the data were processed

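Per the labels' protocols, poly(A) RNA was made into dUTP strand-marked libraries and sequenced in pairs. The submitters' processing notes name build GRCm38 and, with no roles, HISAT2 2.2.1, StringTie 2.1.6, cutadapt 1.9, edgeR and DESeq2. The strand setting of the counting is not given in the sources used here. Per the file headers, the authors deposited FPKM values and estimated counts for each gene, and these counts were whole numbers already. Young replicates 1 and 2 held 52866260 and 63828074 counts, and aged replicates 1 and 2 held 55411355 and 51328364. At these totals the floor of 3 counts is 0.047 to 0.0584 CPM, for counting error only.

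From the counts, genes with a mean FPKM of at least 1 were tested with edgeR 4.0.16 (R 4.3.3; TMM scaling, quasi-likelihood, two-sided, 12 months minus 8 weeks, all 4 libraries, 2 residual degrees of freedom), adjusted over 12027 genes. SE was taken as the size of the log2 fold change over the root of its F statistic. The code was tested on simulated data. Alternatives used limma 3.58.1, DESeq2 1.42.0 and mgcv 1.9.3; removal of the trends on principal transcript length and GC content was chosen after seeing the data. Principal transcripts are those of GENCODE vM21; 90.4% of tested genes had one. Of the members, Actc1 and Tmod1 overlap a gene on the opposite strand and 0 overlap one on the same strand. Python 3.11.15 with matplotlib 3.10.9, numpy 2.4.6 and pandas 2.3.3 drew the figures and made the tables.

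The members and gene lists were chosen with earlier results of these data known. Named are all members and up to 4 called genes of each list with the smallest p. Also named are the 5 genes nearest in pattern to the called member with the largest change. Dnaaf3, Ppp1r12c, Lad1, Myot, Cap1, Mrtfb, Myh3, Capza1, Capza2, Capzb and Nkx2-5 were named after their values were seen. So were Mef2d, Myh6, Mybpc3, Tnni2, Tnnt3, Tnnc2, Nppa, Bmp10, Des, Cidea, Mb, Ryr2 and Actn2.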

Additional observations from a re-analysis of the deposited data

How the results depend on the processing

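Over the 162 fold changes of single members under an alternative, 147 kept their direction and their side of the threshold, 13 lost the call, 1 gained it, and 1 (Acta1 without aged replicate 1) moved to about 0; no called member changed sign. Tnni3, Tnnt2 and Tmod1 were called under every alternative run. With each library left out in turn, members called higher ranged from 1 to 4 and lower from 3 to 5, paralogs higher from 0 to 2 and lower from 1 to 4, filament-associated genes higher from 7 to 13 and lower from 0 to 1, and regulators higher from 4 to 7 and lower from 0 to 1. The share of all tested genes called then ranged from 17.3% to 38.7%. With the principal transcript length trend removed, 3 members were called lower in place of 5 and 1 regulator was called lower. A minimum of 5 FPKM gave 2 filament-associated genes lower, and removal of the gene length trend gave 1 such gene and 1 regulator lower. Upper quartile scaling and DESeq2 each gave 1 regulator lower. FPKM rescaled to equal sums gave 2 paralogs higher and 0 lower; it moved the median log2 fold change of all genes to 0.16, with 77.6% of calls higher against 53.5%. No filter left 2 members higher and 4 lower, with Actc1 and Tnnt1 lost, and removal of the GC trend left 2 higher, with Actc1 lost. By counts, the Tnni1 share differed by 0.0128 percentage points in place of 0.00747. The cause of these shifts was not tested. No paired analysis was run, because the replicate numbers follow only the order of deposit. With 2 libraries per age, calls rest on the spread pooled across genes.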
